A study of Mus musculus with 59 samples.

Results

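The tumour necrosis factor (TNF) ligand and receptor superfamily was followed across all 12 groups of a bulk RNA-seq study of mouse microglia. Members were the genes of both deposited tables whose symbol begins with Tnfsf (ligands) or Tnfrsf (receptors), with pseudogenes left out. The rule found 33 of 32070 genes. They comprised 13 ligand symbols and 20 receptor symbols. The ligand symbols include Tnfsfm13, a readthrough transcript of Tnfsf12 into Tnfsf13, and Tnfsf13os, an antisense gene. Family members that carry other symbols (Tnf, Lta, Cd40, Fas and the like) are given separately.

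Primary microglia, the resident macrophages of the brain, were prepared from newborn pups (P0 or P1), plated for 16 h and then kept for 24 h without stimulus (UT) or with 1 of 3 stimuli. The stimuli were lipopolysaccharide (LPS, a bacterial cell wall component sensed by TLR4, 100 ng/mL), interleukin-4 (IL4, 20 ng/mL) and poly(I:C) (pIC, a mimic of viral RNA sensed by TLR3, for which the sources used here state no dose). The 3 genotypes concern Tbk1, a kinase of innate immune signalling. WT microglia were Tbk1 fl/fl without Cre. HET microglia were Tbk1 fl/+ and KO microglia Tbk1 fl/fl, both with Cx3CR1-Cre, which acts in microglia and related macrophages. A difference from WT therefore also includes the presence of Cre, whereas KO and HET share it. Each group held 5 libraries, except 4 in untreated WT. The labels describe independent cultures.

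Members of this family are mostly trimeric ligands, on the cell surface or shed from it, and the receptors that bind them. Receptors with a death domain can recruit caspase-8 or RIPK1, receptors without one recruit TRAF adaptors that activate NF-kappaB and MAP kinases, and decoy receptors bind ligand without a full signal. In microglia the family is known best for TNF and its 2 receptors. TBK1 phosphorylates IRF3 downstream of TLR3 and TLR4 and is also recruited to TNF receptor 1, where it restrains RIPK1.

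Levels are in TPM, transcript abundances scaled to a fixed total per library, which correct for transcript length, so levels of different genes can be set side by side. A log2 difference is on the log2(TPM + 1) scale, given ± its standard error (SE), and understates the change of genes near 1 TPM. A member passed the test where its Benjamini-Hochberg adjusted p from limma, over all genes tested, was under 0.05. The UT, LPS and IL4 libraries stand in one table and the pIC libraries in another, so pIC levels are set beside the others without a test. In bulk RNA, fewer cells of a type and less RNA per cell cannot be told apart. Libraries held 12428 to 14581 genes at 1 TPM or more, and the read depth behind a TPM value is unknown. Mean Tbk1 was 47.5 TPM in WT, 34.9 in HET and 19.9 in KO without stimulus, and 90.9, 60.5 and 18.0 under LPS. All 10 microglial markers were at 1 TPM or more on average in every group. The libraries least like the rest of their group were replicate 4 of KO with pIC and replicate 1 of KO with LPS, with mean correlations of 0.970 and 0.971.

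Promoters are shown for 4 members that the comparisons below turn on and whose window holds an ISRE or a kappaB match. Sequences are from RefSeq on GRCm38.p6 and run from 250 bases before to 50 after a gene start, 5′ to 3′ on the gene's strand. The table held 29 promoters for 25 of the 33 members. Patterns of 3 kinds were searched on both strands. GAAA, any 2 bases and GAAA again make the core of the interferon-stimulated response element (ISRE), bound by IRF factors. GGG, any 3 bases and TTCC make a kappaB site, bound by NF-kappaB, and TTCNNNGAA is the site bound by STAT dimers (GAS). Capitals mark the matches. Tnfsf13b is at chr8:10006383-10006682 on the plus strand, Tnfrsf1b at chr4:145246821-145247120 on the minus strand, Tnfrsf14 at chr4:154928028-154928327 on the minus strand and Tnfrsf9 at chr4:150927749-150928048 on the plus strand.
Tnfsf13b: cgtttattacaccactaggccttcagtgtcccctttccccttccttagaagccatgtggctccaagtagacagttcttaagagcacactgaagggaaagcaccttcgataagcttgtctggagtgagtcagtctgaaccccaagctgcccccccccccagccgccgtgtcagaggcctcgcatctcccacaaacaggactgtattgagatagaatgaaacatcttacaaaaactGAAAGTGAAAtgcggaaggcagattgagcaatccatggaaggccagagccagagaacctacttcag
Tnfrsf1b: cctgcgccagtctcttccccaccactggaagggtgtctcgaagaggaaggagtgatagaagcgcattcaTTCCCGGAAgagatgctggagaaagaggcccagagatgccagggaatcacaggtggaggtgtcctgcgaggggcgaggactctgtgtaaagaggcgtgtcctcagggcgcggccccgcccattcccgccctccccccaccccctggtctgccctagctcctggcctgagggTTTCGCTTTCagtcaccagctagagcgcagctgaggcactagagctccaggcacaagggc
Tnfrsf14: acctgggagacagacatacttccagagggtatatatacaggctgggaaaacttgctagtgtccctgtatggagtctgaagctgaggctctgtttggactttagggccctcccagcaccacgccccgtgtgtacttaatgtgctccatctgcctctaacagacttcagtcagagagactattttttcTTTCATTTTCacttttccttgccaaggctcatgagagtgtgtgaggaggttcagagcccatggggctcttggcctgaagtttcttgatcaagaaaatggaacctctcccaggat
Tnfrsf9: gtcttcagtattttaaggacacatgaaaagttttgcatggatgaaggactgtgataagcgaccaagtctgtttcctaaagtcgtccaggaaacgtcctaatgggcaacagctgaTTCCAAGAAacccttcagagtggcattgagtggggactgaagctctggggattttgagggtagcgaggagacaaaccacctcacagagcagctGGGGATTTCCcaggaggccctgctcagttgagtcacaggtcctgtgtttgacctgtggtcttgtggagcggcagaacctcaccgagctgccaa

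The Tnfsf13b window holds an ISRE match on the plus strand 16 bases before the start it was cut from (position -16). Tnfrsf1b holds an ISRE match on the other strand at -10 and a GAS match at -181. Tnfrsf14 holds an ISRE match on the other strand at -64. Tnfrsf9 holds a kappaB match at -43 and a GAS match at -136. The windows shown for Tnfsf13b, Tnfrsf14 and Tnfrsf9 lie inside the listed extents of these genes. Those extents are chr8:10006229-10036000, chr4:154918487-154928620 and chr4:150920155-150946104. Positions in these 3 windows thus count from a start within the gene and not from its outer end. The ISRE pattern was found in promoters of 4 members, kappaB in 2 and GAS in 6. Over all 32851 promoters in the table, 3.44% held the ISRE pattern, 5.56% kappaB and 8.3% GAS. The other listed start of Tnfsf13b (chr8:10006217-10006516) and that of Tnfrsf9 (chr4:150919905-150920204) held none of the patterns. The windows of Tnfsf10, Tnfsf15, Tnfrsf8, Tnfrsf11a, Tnfrsf12a, Tnfrsf13b and Tnfrsf21, which also appear in the comparisons below, held none either. The ISRE member not shown was Tnfrsf17, which stayed below 1 TPM in every group. A match describes letters and is not a shown binding site.

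Of the 33 members, 14 reached a group mean of 1 TPM in all 12 groups, 10 did so in some groups and 9 in none. The members at or above 1 TPM everywhere were the receptors Tnfrsf1a, Tnfrsf1b, Tnfrsf11a, Tnfrsf12a, Tnfrsf13b, Tnfrsf14, Tnfrsf19, Tnfrsf21, Tnfrsf23 and Tnfrsf26, the ligands Tnfsf9, Tnfsf12 and Tnfsf13b, and the readthrough Tnfsfm13. Those that crossed 1 TPM by group were the ligands Tnfsf4, Tnfsf8, Tnfsf10, Tnfsf13 and Tnfsf15 and the receptors Tnfrsf8, Tnfrsf9, Tnfrsf10b, Tnfrsf13c and Tnfrsf22. With a threshold of 0.5 TPM the split was 15, 11 and 7, and with 5 TPM it was 8, 10 and 15.

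The 9 members below 1 TPM in every group were Tnfsf11 (RANKL), Tnfsf14 (LIGHT), Tnfsf18 (GITR ligand), Tnfsf13os, Tnfrsf4 (OX40), Tnfrsf11b (osteoprotegerin), Tnfrsf17 (BCMA), Tnfrsf18 (GITR) and Tnfrsf25 (DR3). Their highest group means ran from 0.122 TPM for Tnfrsf18 to 0.915 for Tnfrsf4 in WT with IL4, where 1 library at 3.69 TPM lifted the mean. Several ligand and receptor pairs were therefore above 1 TPM on one side only. Tnfrsf11a (RANK) was at 52.1 TPM in untreated WT while its ligand Tnfsf11 stayed at or below a mean of 0.124 TPM in all groups. Tnfsf15 (TL1A) appeared under LPS and pIC while its receptor Tnfrsf25 stayed at or below 0.479 TPM. Tnfsf4 (OX40 ligand) reached 1.41 to 1.61 TPM under pIC with Tnfrsf4 below 1 TPM. Tnfrsf14 (HVEM) stood at 34.1 TPM in WT with LPS while its ligand Tnfsf14 never exceeded a mean of 0.396.

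**Figure D1:**
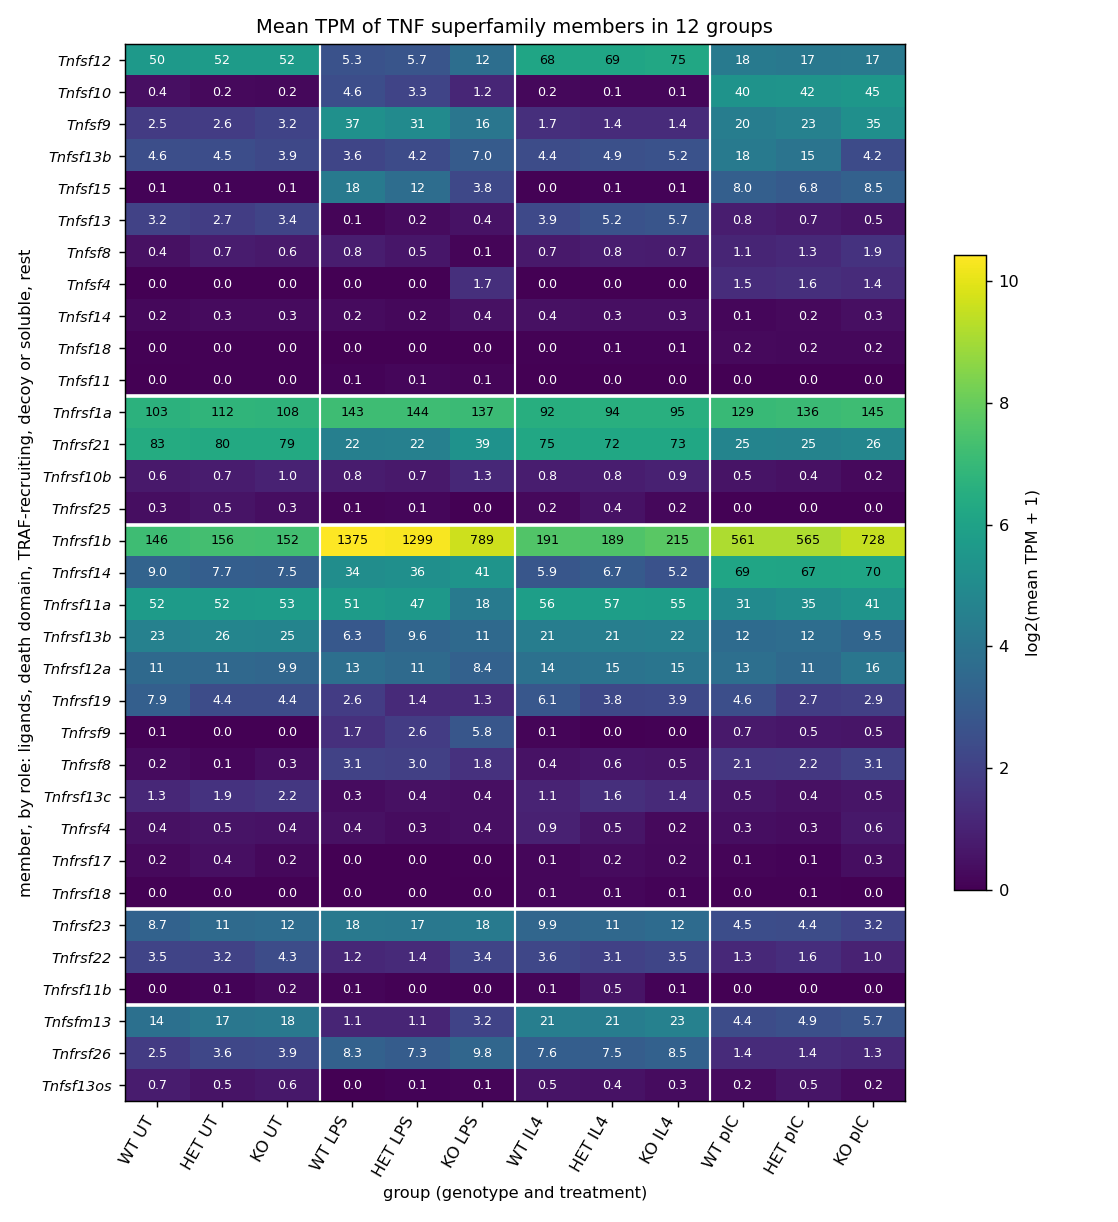
Mean TPM of the 33 members (rows, by role) in the 12 groups (columns, by treatment and genotype), with the mean printed in each cell and colour showing log2(mean TPM + 1). Tnfrsf1b under LPS is the brightest row segment (1375 TPM in WT, 789 in KO), and the rows of the 9 members under 1 TPM are dark throughout.

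The number of members at a mean of 1 TPM or more was 17 in untreated WT, 19 in WT with LPS, 17 with IL4 and 20 with pIC. Ligand symbols made up 5 of these without stimulus and with IL4, 6 with LPS and 8 with pIC. In KO the count with LPS was 21, and Tnfsf4 and Tnfrsf10b were the members above 1 TPM there that were below it in WT with LPS. Without stimulus the highest members in WT were Tnfrsf1b at 146 ± 10.3 TPM (SD, n = 4), Tnfrsf1a at 103 ± 8.01, Tnfrsf21 at 83.3 ± 12.1, Tnfrsf11a at 52.1 ± 8.91 and Tnfsf12 at 49.6 ± 7.57. The test covered the 23 members that reached 1 TPM in at least 4 libraries of the UT, LPS and IL4 table and 20 in the pIC table. A member that entered through 1 treatment alone had to differ there, so the counts below describe the members tested. Among the UT, LPS and IL4 libraries, Tnfsf10, Tnfsf15, Tnfrsf8 and Tnfrsf9 reached 1 TPM only with LPS. The filter thus built in their rise with LPS, and their places among the raised members are no independent support. Tnfsf13 was the reverse case, at 1 TPM in all untreated and IL4 libraries and in 0 LPS libraries of each genotype. Its place among the lowered members is no independent support either. Tnfrsf13c came close to that, at 1 TPM with LPS in 1 KO library and in 0 WT and 0 HET libraries.

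LPS raised 10 and lowered 8 of the 23 tested members in WT, against 75.8% of all genes tested passing in either direction, 13.9% higher and 61.9% lower. The members' median difference was 0.27, and that of all genes tested was -0.59. Relative to the median gene each member's difference is thus more positive by that amount (3.82 for Tnfrsf1b, 4.01 for Tnfsf9, -0.43 for Tnfrsf22 and -0.24 for Tnfrsf13c). With median-of-ratios scaling the all-gene median was -0.06 and the members split 12 higher and 7 lower. With quantile normalization they split 13 and 5. In HET 8 rose and 8 fell (74% of all genes passed, 14.3% higher and 59.7% lower), and in KO 10 rose and 9 fell (69.6%, with 13.1% and 56.5%).

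Among the ligands, Tnfsf15, Tnfsf9 and Tnfsf10 rose with LPS in WT. Tnfsf9 (4-1BB ligand, a costimulatory ligand) stood at 2.42, 3.14, 2.50 and 1.90 TPM in the untreated WT libraries and at 42.1, 39.3, 40.6, 28.0 and 33.1 TPM with LPS. The groups were far apart, with a difference of 3.43 ± 0.22 (adjusted p = 1.09e-16). Tnfsf15, whose receptor DR3 acts on lymphocytes, was at or below 0.168 TPM in every untreated library and at 3.96, 15.0, 10.9, 14.5 and 46.6 TPM in the WT libraries with LPS. It varied more than any other raised ligand (18.2 ± 16.5, SD, n = 5), with replicate 5 the highest in each genotype under LPS, and its difference was 3.78 ± 0.36 (adjusted p = 6.06e-12). Tnfsf10 (TRAIL, which triggers death receptors and is interferon-inducible) went from a mean of 0.353 TPM to 4.55 ± 1.06, a difference of 2.02 ± 0.25 (adjusted p = 3.03e-09).

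The Tnfsf12 and Tnfsf13 locus fell with LPS. Tnfsf12 (TWEAK) dropped from 49.6 ± 7.57 TPM in untreated WT to 3.10, 6.31, 3.57, 5.45 and 7.84 TPM with LPS, a difference of -3.06 ± 0.20 (adjusted p = 6.56e-17). Tnfsf13 (APRIL, a survival factor for plasma cells) went from a mean of 3.18 to 0.0966 TPM, and Tnfsfm13 from 13.5 to 1.10. The untreated WT libraries ran from 2.58 to 4.02 TPM for Tnfsf13 and from 10.1 to 19.0 for Tnfsfm13, in both above all LPS libraries. Tnfsf12 (chr11:69686240-69696098 on mm10), Tnfsf13 (chr11:69682577-69685554), Tnfsfm13 (chr11:69682577-69696098) and Tnfsf13os (chr11:69682032-69691141) overlap, and no source used here says whether reads were counted by strand. How reads were shared among these 4 symbols is uncertain, and they are not independent. Tnfsf13b (BAFF, a B cell survival factor) did not pass in WT (-0.33, and 0.42 with quantile normalization) or in HET but rose in KO (0.68 ± 0.23, adjusted p = 0.00957).

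**Figure D2:**
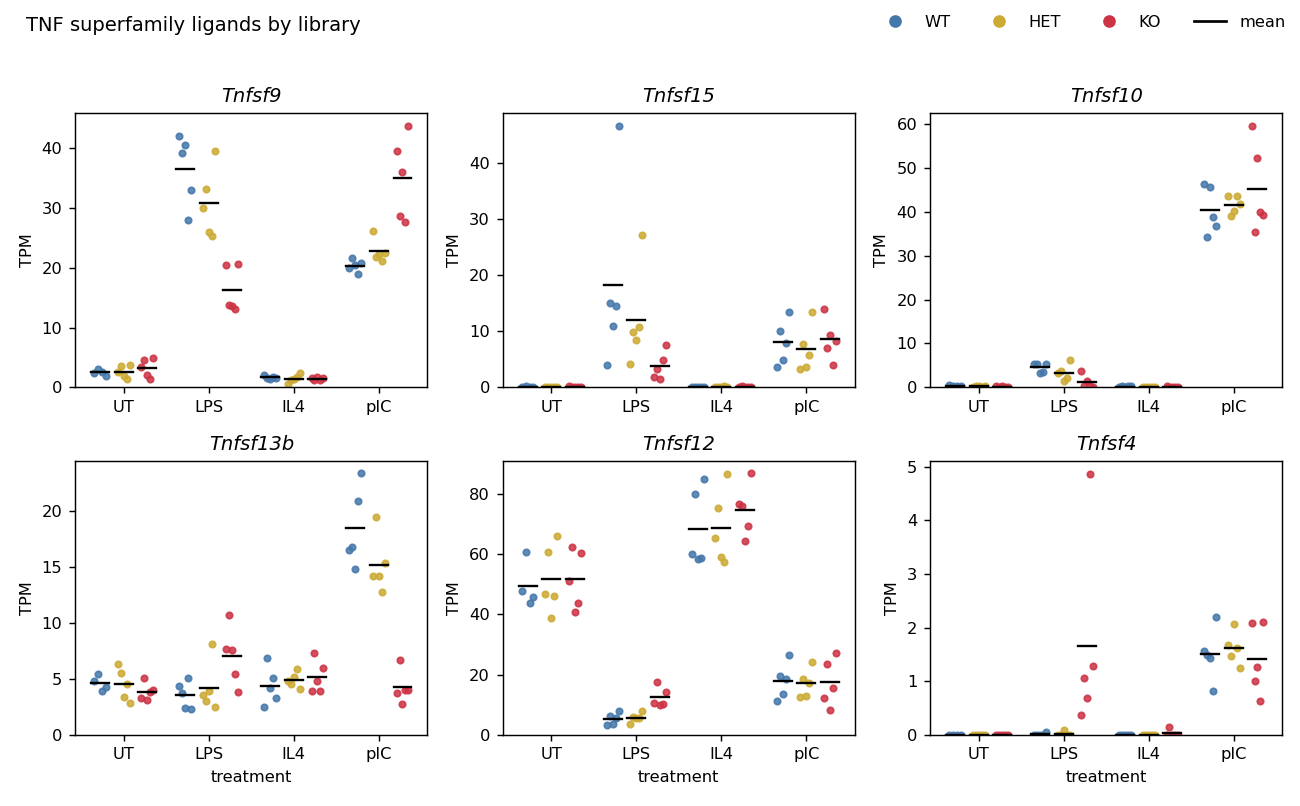
TPM of 6 ligands in each library (points, coloured by genotype), grouped by treatment, with the group mean as a bar. Tnfsf9 and Tnfsf15 under LPS are lower in KO than in WT, Tnfsf12 is higher in KO under LPS, and Tnfsf13b under pIC is 4.23 TPM on average in KO beside 18.5 in WT.

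The death domain receptors moved in different directions. Tnfrsf1a (TNF receptor 1) rose from 103 ± 8.01 TPM to 143 ± 10.3 in WT with LPS, a small difference of 0.47 ± 0.07 (adjusted p = 1.3e-07). Its untreated WT libraries ran from 95.0 to 111 TPM and those with LPS from 127 to 152, without overlap. Tnfrsf21 (death receptor 6, known for roles in neurons and oligodendrocytes) fell from 83.3 ± 12.1 to 21.8 ± 4.46 TPM (-1.89 ± 0.18, adjusted p = 8.43e-12). Tnfrsf10b (the mouse TRAIL receptor) had means of 0.618 TPM without stimulus and 0.750 with LPS in WT and did not pass (0.10). Its ligand Tnfsf10 was thus raised with LPS while the receptor stayed under 1 TPM.

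Among receptors that recruit TRAF adaptors, Tnfrsf1b (TNF receptor 2) reached the highest level of any member. Its untreated WT libraries held 146, 160, 141 and 136 TPM, and the WT libraries with LPS held 1189, 1452, 1444, 1350 and 1441 TPM. Every LPS library lay far above every untreated one, with a difference of 3.23 ± 0.12 (adjusted p = 1.28e-24). Tnfrsf14 ran from 6.81 to 13.7 TPM without stimulus and stood at 42.8, 33.3, 32.2, 32.6 and 29.4 TPM with LPS (1.84 ± 0.26, adjusted p = 6.06e-08). Tnfrsf8 (CD30) rose to 3.15 ± 0.925 TPM (1.71 ± 0.15, adjusted p = 6.93e-13), and Tnfrsf9 (4-1BB, the receptor of Tnfsf9) to 1.74 ± 1.26 TPM (1.24 ± 0.36, adjusted p = 0.00246). The LPS libraries of Tnfrsf8 held 2.56, 2.46, 2.89, 3.08 and 4.74 TPM, while its ligand Tnfsf8 had a mean of 0.774 TPM there and did not pass (0.27).

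Tnfrsf13b (TACI, a receptor of BAFF and APRIL) ran from 18.6 to 26.6 TPM in untreated WT and held 8.20, 3.92, 6.66, 7.77 and 4.94 TPM with LPS, a fall without overlap (-1.73 ± 0.16, adjusted p = 3.91e-12). Tnfrsf19 (TROY) fell from 7.94 ± 2.93 to 2.64 ± 1.66 TPM (-1.38 ± 0.36, adjusted p = 0.000706). Quantile normalization ended the calls of Tnfrsf19 and Tnfrsf22. Summed markers of microglia, the oligodendrocyte lineage, neurons and astrocytes were lower in WT with LPS than without it. The 10 microglial markers summed to 6394 to 7294 TPM without stimulus and 1597 to 2066 with LPS, and 8 of the 10 fell and 2 rose. The 8 oligodendrocyte lineage markers summed to 884 to 2136 TPM without stimulus and 97.5 to 677 with LPS. The 6 neuronal markers summed to 142 to 247 and 36.3 to 88.2, and the 7 astrocyte markers to 128 to 206 and 51.3 to 75.7. Of the astrocyte markers, Gja1 rose (2.26 ± 0.45), whereas Aqp4, Aldh1l1, Slc1a3 and Aldoc fell. The 7 border macrophage and monocyte markers summed to 357 to 493 TPM without stimulus and 463 to 555 with LPS, with a higher median. Singly they were mixed, since Mrc1 (-3.89 ± 0.31) and Ccr2 (-0.42 ± 0.17) fell, Ms4a7 (0.64 ± 0.18) rose and no other passed. The part of all these markers in the falls of Tnfrsf19 and Tnfrsf21 was not tested. Tnfrsf11a (-0.02) and Tnfrsf12a (the TWEAK receptor Fn14, 0.27) did not pass in WT. With median-of-ratios scaling both rose, by 0.65 and 0.89, and with quantile normalization Tnfrsf12a alone of the 2 passed (0.90).

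Tnfrsf22, Tnfrsf23 and Tnfrsf26 are neighbouring genes on chromosome 7, from chr7:143607685-143627845 (Tnfrsf26) through chr7:143634808-143649675 (Tnfrsf22) to chr7:143665807-143686436 (Tnfrsf23). Tnfrsf22 and Tnfrsf23 encode decoy TRAIL receptors. The genes are alike in sequence, so shared reads could be split between them. Tnfrsf26 rose with LPS in WT (1.19 ± 0.38, adjusted p = 0.00481), Tnfrsf23 rose at the edge of the test (0.75 ± 0.33, adjusted p = 0.0408), and Tnfrsf22 fell (-1.01 ± 0.23, adjusted p = 0.000144). Tnfrsf23 held 6.45, 14.1, 14.7, 14.6 and 38.3 TPM in the WT libraries with LPS, and replicate 5 was the highest and replicate 1 the lowest in all 3 genotypes. Without replicate 5 of WT with LPS the Tnfrsf23 difference was 0.42 and did not pass, and leaving out any of 5 other libraries also ended the call. Tnfrsf26 had the same highest and lowest replicates under LPS in all 3 genotypes.

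**Figure D3:**
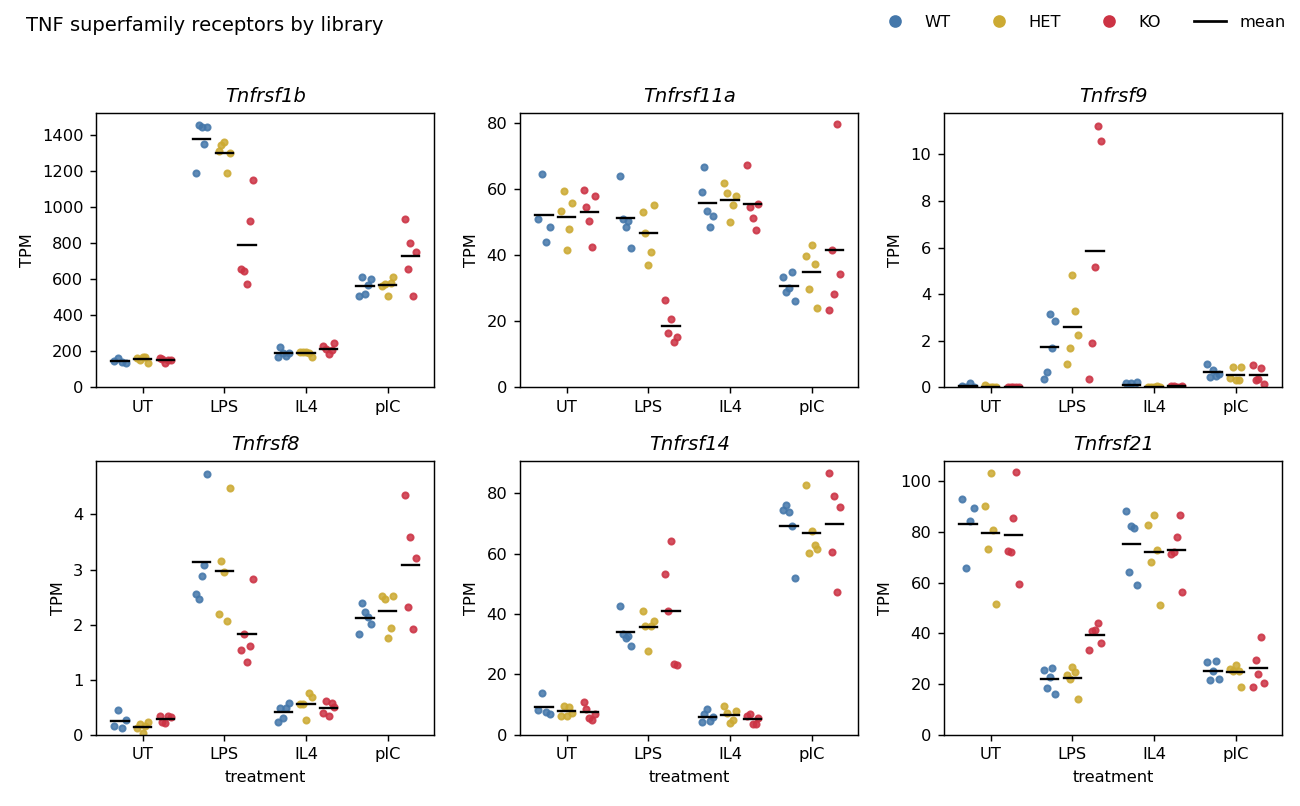
TPM of 6 receptors in each library (points, coloured by genotype), grouped by treatment, with the group mean as a bar. Under LPS the KO points of Tnfrsf1b and Tnfrsf11a lie below all WT and HET points, and those of Tnfrsf21 lie above them.

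Under LPS members differed between KO and WT in both directions. Of 23 tested members, KO exceeded WT in 7 and fell below it in 7, against 27.6% of all genes tested, 14.4% higher and 13.2% lower. Against HET, which shares Cre with KO, 6 were higher and 6 lower, against 24% of all genes, 12.5% higher and 11.5% lower. No member passed between HET and WT under LPS by limma (1 had an unadjusted p under 0.05, and 0.0126% of all genes passed). Fitted on only the groups compared, Tnfrsf8, Tnfrsf9 and Tnfsf13b no longer passed against WT, and Tnfrsf8, Tnfrsf10b, Tnfsf10, Tnfsf13b and Tnfsf15 no longer passed against HET. The members' median KO minus WT difference was 0.08 and that of all genes 0.01.

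Lower in KO under LPS were the ligands Tnfsf9, Tnfsf10 and Tnfsf15 and the receptors Tnfrsf1b, Tnfrsf8, Tnfrsf11a and Tnfrsf12a. Tnfrsf11a, the receptor of the osteoclast factor RANKL, held 64.0, 51.0, 48.5, 50.4 and 42.1 TPM in WT, and 26.3, 16.4, 20.7, 13.8 and 15.2 TPM in KO. The HET libraries ran from 37.2 to 55.4 TPM, so KO lay below both other genotypes without overlap. The difference was -1.45 ± 0.14 from WT (adjusted p = 4.55e-11) and -1.31 ± 0.14 from HET (adjusted p = 7.21e-10). In the absence of stimulus the means were 52.1, 51.7 and 53.0 TPM in WT, HET and KO. In TPM, LPS thus left Tnfrsf11a near its untreated level in WT and lowered it in KO (-1.50 ± 0.14, adjusted p = 2.45e-12), and the test of that difference in response gave -1.47 ± 0.20 (adjusted p = 6.96e-07). The unchanged level in WT depends on the scaling, since with median-of-ratios scaling Tnfrsf11a rose there, as given above.

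Tnfrsf1b held 657, 646, 570, 923 and 1146 TPM in KO with LPS, below the 1185 to 1452 TPM of all 10 WT and HET libraries. The difference was -0.85 ± 0.11 from WT (adjusted p = 9.98e-08) and -0.77 ± 0.11 from HET (adjusted p = 9.82e-07). It still rose with LPS within KO (2.32 ± 0.11), and the response was smaller than in WT by -0.91 ± 0.16 (adjusted p = 8.08e-05). Tnfrsf1a, the other TNF receptor, was at 143 ± 10.3, 144 ± 6.10 and 137 ± 16.3 TPM in WT, HET and KO and did not pass.

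Tnfsf9 held 20.4, 13.8, 13.5, 13.1 and 20.7 TPM in KO with LPS, all below the lowest WT library at 28.0 and the lowest HET library at 25.4. Its difference was -1.13 ± 0.21 from WT (adjusted p = 4.38e-05) and -0.89 ± 0.21 from HET (adjusted p = 0.00124). Tnfsf15 held 1.84, 3.32, 1.57, 4.79 and 7.51 TPM in KO, and the 2 highest lie within the WT range, whose lowest library is 3.96. Its difference was -1.76 ± 0.34 from WT (adjusted p = 6.95e-05) and -1.36 ± 0.34 from HET (adjusted p = 0.00199).

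Tnfsf10 held 3.63, 0.393, 1.41, 0.381 and 0.105 TPM in KO with LPS and 5.27, 5.34, 3.23, 3.58 and 5.37 TPM in WT. Replicate 1 of KO lay within the WT range, and the others lay below it. The difference was -1.54 ± 0.23 from WT (adjusted p = 1.24e-06) and -1.10 ± 0.23 from HET (adjusted p = 0.000301). The rise of Tnfsf10 with LPS within KO (0.69 ± 0.23, adjusted p = 0.00876) rested on that library, and without it the adjusted p was 0.0946. Tnfrsf8 held 1.55, 1.83, 1.33, 1.62 and 2.83 TPM in KO, where only the highest library reached the WT range that begins at 2.46. Its KO minus WT difference was -0.55 ± 0.14 (adjusted p = 0.00251) and that from HET was -0.48 ± 0.14 (adjusted p = 0.01), the latter lost without replicate 5 of HET. Tnfrsf12a held 9.56, 8.61, 8.33, 8.62 and 6.73 TPM in KO, below the lowest WT library at 10.4 and overlapping HET, which ran from 8.24 to 13.8. Its difference from WT was -0.55 ± 0.17 (adjusted p = 0.0133), a call lost without replicate 1 of WT (adjusted p = 0.0784) and not made against HET (-0.36).

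Higher in KO under LPS were members that LPS lowered in WT, together with Tnfsf13b and Tnfrsf9. Tnfsf12 held 10.5, 17.4, 9.96, 10.4 and 14.1 TPM in KO, all above the highest WT library at 7.84 and the highest HET library at 7.92. Its difference was 1.14 ± 0.19 from WT (adjusted p = 5.14e-06) and 1.01 ± 0.19 from HET (adjusted p = 4.29e-05). The overlapping Tnfsfm13 moved with it (1.01 ± 0.19 from WT, adjusted p = 4.83e-05). The KO libraries of Tnfsfm13 ran from 2.27 to 4.01 TPM, above the 0.694 to 1.49 of WT. Tnfsf12 nevertheless remained well below the 51.7 TPM of untreated KO.

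Tnfrsf21 held 33.3, 41.0, 41.4, 44.3 and 36.3 TPM in KO with LPS and 25.7, 18.4, 22.7, 26.3 and 16.1 TPM in WT. The groups did not overlap, and neither did KO and HET, whose highest library was 26.9 TPM. The difference was 0.83 ± 0.17 from WT (adjusted p = 0.00018) and 0.81 ± 0.17 from HET (adjusted p = 0.000319). The summed oligodendrocyte markers ran from 153 to 516 TPM in KO with LPS, and the neuronal sums from 32.3 to 80.7, both overlapping the WT ranges. The decoy receptor Tnfrsf22 held 2.32, 2.22, 3.29, 3.09 and 6.04 TPM in KO, above the highest WT library at 1.84 and the highest HET library at 1.91. It was higher by 0.97 ± 0.22 from WT (adjusted p = 0.000486) and 0.84 ± 0.22 from HET (adjusted p = 0.00289).

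Tnfrsf13b was higher in KO than in WT by 0.75 ± 0.15 (adjusted p = 0.000163), with libraries at 10.6, 10.1, 10.7, 11.5 and 11.7 TPM, all above the highest WT library at 8.20. HET lay between at 9.59 ± 2.67, and neither KO minus HET (0.21) nor HET minus WT (0.54 ± 0.15, adjusted p = 0.459) passed. Tnfsf13b, its ligand, held 7.66, 10.7, 7.56, 5.46 and 3.83 TPM in KO and 4.39, 3.72, 2.39, 5.08 and 2.29 in WT, with overlap. The difference was 0.79 ± 0.23 from WT (adjusted p = 0.00771) and 0.65 ± 0.23 from HET (adjusted p = 0.0361), the latter lost on leaving out any of 7 single libraries.

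Tnfrsf9 varied widely between libraries under LPS. It held 0.365, 1.90, 5.16, 11.2 and 10.6 TPM in KO, 0.353, 0.647, 3.16, 1.68 and 2.84 in WT and 1.02, 1.69, 4.81, 3.28 and 2.23 in HET. The lower KO libraries lay within the WT range and the upper 3 above it. The difference of 1.04 ± 0.34 from WT (adjusted p = 0.0194) was lost without replicate 1 or 2 of WT or replicate 4 or 5 of KO (adjusted p up to 0.117), and that from HET did not pass (0.60). Thus Tnfsf9 was lower in KO under LPS while its receptor had a higher mean.

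Tnfrsf10b had a mean of 1.25 TPM in KO and 0.655 in HET with LPS. It passed against HET (0.41 ± 0.15, adjusted p = 0.0426), a call lost on leaving out any of 5 single libraries, and the libraries overlapped.

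Tnfsf4 did not reach the level for the test in this table, yet its pattern was uneven. It was listed at 0 in all 14 untreated libraries. With LPS 1 WT library was at 0.061 TPM and 1 HET library at 0.085, the others being listed at 0, whereas the KO libraries held 0.376, 1.05, 0.688, 4.87 and 1.28 TPM. All KO libraries thus lay above all WT and HET libraries. Tested without the filter on low values, the difference was 1.18 ± 0.17 from WT (adjusted p = 1.26e-06) and 1.18 ± 0.17 from HET (adjusted p = 2.02e-06). Tnfsf4 is described for this pattern, and in this table only KO libraries with LPS reached 1 TPM. These p-values are thus no independent support for the difference. Tnfsf8 (CD30 ligand) went the other way in its means, at 0.774 ± 0.783 TPM in WT and 0.0992 in KO, without passing (-0.60 ± 0.24, adjusted p = 0.0529).

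**Figure D4:**
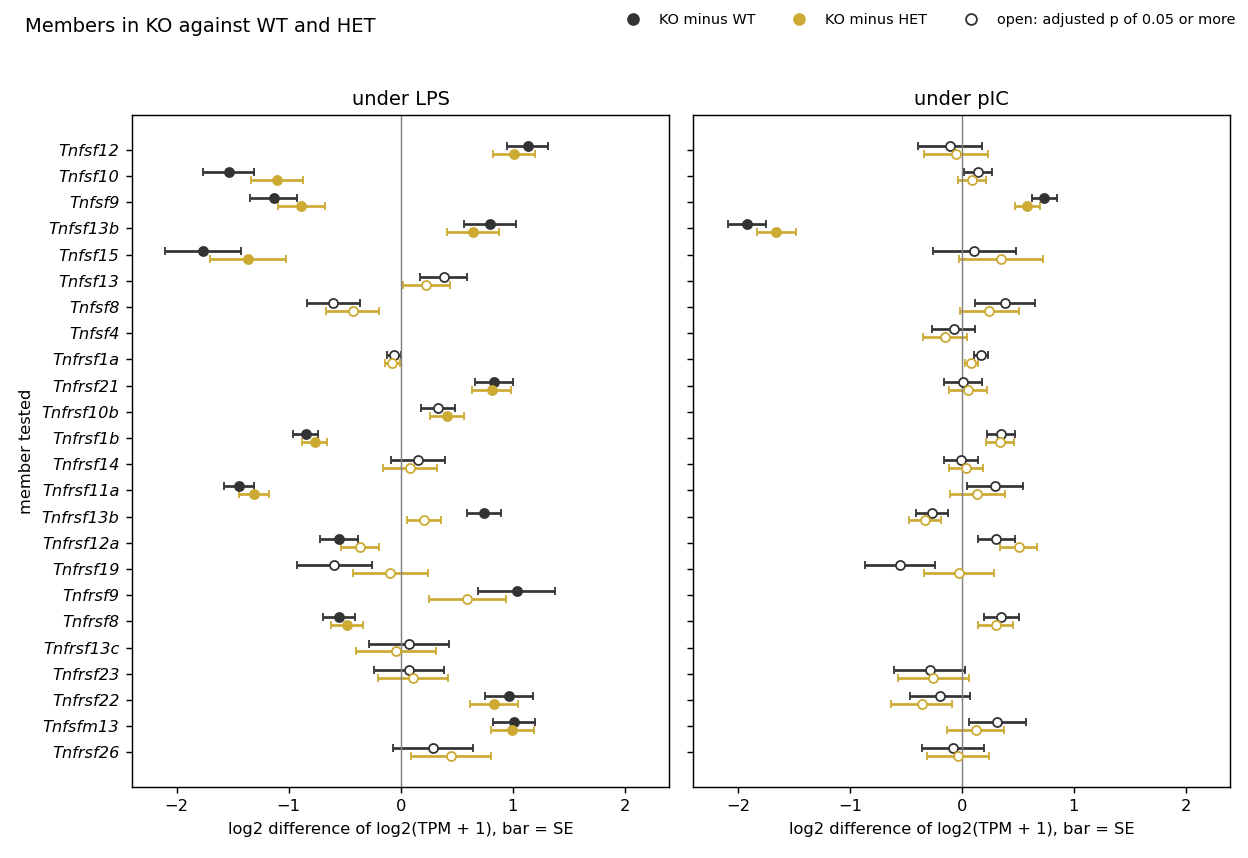
Log2 difference of KO from WT (dark) and from HET (yellow) for each tested member, with bars showing the SE and filled points an adjusted p under 0.05, under LPS (left) and pIC (right). Under LPS filled points lie on both sides of 0, and under pIC only Tnfsf13b (-1.92 from WT) and Tnfsf9 (0.74) are filled.

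Markers of another macrophage class moved with KO under LPS. The 7 border macrophage and monocyte markers summed to 950 to 1506 TPM in KO, 463 to 555 in WT and 484 to 965 in HET. Of these 7, 4 were at a mean of 1 TPM or more in KO and HET and 3 in WT, where Cd163 was listed at 0. Ly6c2 (3.23 ± 0.26), Pf4 (2.93 ± 0.33) and Mrc1 (1.79 ± 0.29) were higher in KO than in WT, and Ms4a7 was lower (-1.15 ± 0.17). The microglial markers Tmem119 (2.30 ± 0.19) and Cx3cr1 (1.11 ± 0.21) were higher in KO as well. The part of these markers in the differences between KO and WT under LPS was not tested.

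Taking LPS responses directly, 10 members responded differently in KO and WT, 4 with a more positive and 6 with a more negative response, against 16.4% of all genes tested (9.36% and 7.03%). The more negative were Tnfsf15 (-1.77 ± 0.49, adjusted p = 0.00937), Tnfrsf11a, Tnfsf9 (-1.34 ± 0.31, adjusted p = 0.00141), Tnfsf10 (-1.33 ± 0.34, adjusted p = 0.00401), Tnfrsf1b and Tnfrsf8 (-0.61 ± 0.21, adjusted p = 0.0374). The more positive were Tnfsf12 (1.08 ± 0.27, adjusted p = 0.00336), Tnfsf13b (1.01 ± 0.34, adjusted p = 0.0346), Tnfrsf21 (0.93 ± 0.25, adjusted p = 0.00699) and Tnfrsf13b (0.63 ± 0.22, adjusted p = 0.046). The median response of all genes differed by 0.12. With median-of-ratios scaling the split was 2 more positive and 7 more negative, and with quantile normalization 1 and 6, with Tnfrsf13b and Tnfsf12 lost under both. The calls of Tnfrsf8, Tnfrsf13b and Tnfsf13b were each lost on leaving out single libraries, and that of Tnfsf10 with a pseudocount of 0.1.

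Under pIC the genotypes differed in 2 members. Of 20 tested, KO exceeded WT in 1 and fell below it in 1, against 11.5% of all genes, 3.4% higher and 8.11% lower. The same split held against HET, against 5.24%, 1.65% higher and 3.6% lower. Without replicate 4 of KO 2 were higher and 1 lower in both comparisons. No member passed between HET and WT under pIC by limma, where 0% of all genes passed and no member had an unadjusted p under 0.05. Tnfsf13b held 16.5, 16.8, 14.8, 20.9 and 23.4 TPM in WT. The HET libraries held 14.2, 19.4, 14.2, 12.8 and 15.3 TPM, and the KO libraries 3.71, 6.64, 2.79, 3.99 and 4.00. The KO libraries lay below all others, near the 4.60 TPM mean of untreated WT in the other table. The difference was -1.92 ± 0.17 from WT (adjusted p = 1.19e-05) and -1.66 ± 0.17 from HET (adjusted p = 8.32e-05). Its promoter window with the ISRE match at -16 is shown above, and whether that site is used was not tested.

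Tnfsf9 held 20.0, 21.7, 20.4, 19.0 and 20.7 TPM in WT with pIC and 39.5, 28.6, 36.0, 27.7 and 43.7 TPM in KO, with HET at 22.8 ± 1.96. KO lay above WT and HET without overlap, with a difference of 0.74 ± 0.11 from WT (adjusted p = 0.000779) and 0.58 ± 0.11 from HET (adjusted p = 0.00752). This is the opposite direction to that under LPS. Both members also changed sides between stimuli, since Tnfsf13b was higher in KO with LPS and lower with pIC. The stimuli stand in separate tables, and the difference between them was not tested.

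The other 18 tested members did not pass between KO and WT under pIC. Tnfsf10, at 34.4 to 59.6 TPM over the 15 pIC libraries and at most 6.13 TPM in any LPS library, differed by 0.14 ± 0.13 (adjusted p = 0.495). Tnfrsf1b stood at 561 ± 48.1, 565 ± 38.0 and 728 ± 159 TPM in WT, HET and KO (0.35 ± 0.13 from WT, adjusted p = 0.0806). Tnfrsf14 was at 69.1, 67.0 and 69.8 TPM, and Tnfsf15 at 8.01, 6.79 and 8.54. Tnfrsf11a was at 30.7 ± 3.55, 34.9 ± 7.73 and 41.5 ± 22.4 TPM, and replicate 4 of KO, the pIC library least like the others, held 79.7. Tnfsf12 was at 18.0, 17.1 and 17.4 TPM.

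IL4, which drives an alternative macrophage state, moved few of all genes tested, and the members were no exception. In WT 2 of 23 rose and 0 fell, against 6.31% of all genes, 3.68% higher and 2.63% lower. Tnfrsf26 ran from 2.24 to 2.69 TPM without stimulus and held 4.07, 7.45, 5.18, 8.75 and 12.3 TPM with IL4 (1.22 ± 0.38, adjusted p = 0.043) and Tnfrsf1b from 146 to 191 ± 21.6 TPM (0.38 ± 0.12, adjusted p = 0.0436). With the replicate number as a block 4 passed, Tnfsf12 and Tnfsfm13 being added, and 0 passed with median-of-ratios scaling or without the filter on low values. The 2 groups of Tnfrsf26 did not overlap, and neither did those of Tnfrsf1b, whose IL4 libraries began at 170 TPM. In HET 2 rose and 1 fell (7.05% of all genes, 3.97% higher and 3.09% lower), a count of 3 that was 1 without the filter on low values and 5 with only the groups compared. Tnfsf13 went from a mean of 2.75 to 5.18 TPM and rose by 0.73 ± 0.21 (adjusted p = 0.0241), Tnfrsf8 by 0.44 ± 0.14 (adjusted p = 0.0481), and Tnfrsf1a fell by 0.24 ± 0.06 (adjusted p = 0.0145). Tnfrsf8 stayed below 1 TPM in every HET library without stimulus and with IL4.

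In KO with IL4 2 rose and 1 fell (8.41% of all genes, 5.38% higher and 3.03% lower). Tnfrsf12a rose from 9.95 ± 1.60 to 15.4 ± 1.76 TPM (0.59 ± 0.17, adjusted p = 0.0215), Tnfrsf1b rose by 0.49 ± 0.11 (adjusted p = 0.0021), and Tnfsf9 fell from 3.24 ± 1.52 to 1.44 ± 0.238 TPM (-0.72 ± 0.21, adjusted p = 0.022). With the replicate block 7 passed, with Tnfrsf1a, Tnfrsf26, Tnfsf12 and Tnfsf13 added. No tested gene of the Tnfsf12 locus passed as lower with IL4, and the Tnfsf12 means were 68.4, 68.8 and 74.7 TPM in WT, HET and KO. Tnfsf13os was below the level for the test. Each IL4 call named above, apart from that of Tnfrsf1b in KO, was lost on leaving out at least 1 single library. The IL4 responses of KO and WT differed in no member by limma (0 at an unadjusted p under 0.05, 0% of all genes).

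Without stimulus and with IL4, no member passed between genotypes by limma. Without stimulus KO against WT had 1 member at an unadjusted p under 0.05 (0.0314% of all genes passed), KO against HET 0 (0.00629%) and HET against WT 0 (0.0126%). With IL4 the same counts were 1 (0.044%), 0 (0.00629%) and 0 (0.0126%). Untreated Tnfrsf19 was at 7.94 ± 2.93 TPM in WT and 4.37 ± 0.923 and 4.41 ± 2.36 in HET and KO, with overlapping libraries.

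Tnfrsf13c (the BAFF receptor, known from B cells) was high in single replicates. In KO it held 0.625, 1.18, 0.860, 7.45 and 1.04 TPM without stimulus, with replicate 4 far above the rest. Replicate 4 was also the highest KO library with LPS at 1.03 TPM, with IL4 at 4.07 and with pIC at 1.17. In HET replicate 3 was the highest under each treatment, with 4.64 TPM without stimulus. The 4 B cell markers summed to at most 1.99 TPM in any library, and 0 of the 4 reached a mean of 1 TPM in any group. The LPS fall of Tnfrsf13c in WT (-0.83 ± 0.38, adjusted p = 0.0469) was lost on leaving out any of 8 single libraries and with median-of-ratios scaling or quantile normalization.

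**Figure D5:**
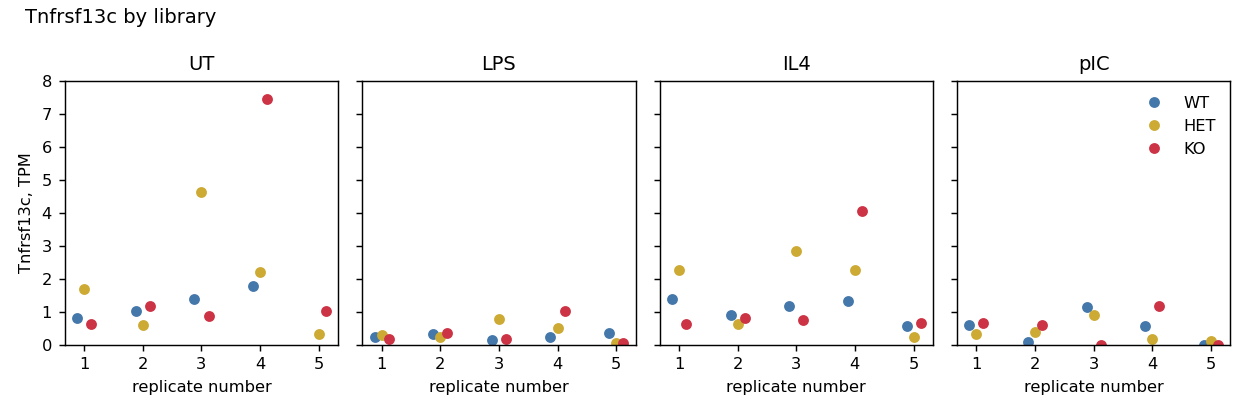
TPM of Tnfrsf13c by replicate number in each treatment, coloured by genotype. Replicate 4 of KO is the highest KO library in all 4 treatments (7.45 TPM without stimulus), and replicate 3 of HET the highest HET library.

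Among family members with other symbols, Tnf itself went from 7.98 TPM in untreated WT to 839 ± 187 with LPS (6.63 ± 0.24), and stood at 911 in HET and 285 ± 135 in KO (KO minus WT -1.65 ± 0.23, adjusted p = 2.45e-07). Under pIC Tnf was higher in KO, at 456 ± 141 TPM against 273 ± 56.3 (0.71 ± 0.18, adjusted p = 0.0218), the same pair of directions as Tnfsf9. Cd40, a receptor of antigen-presenting cells, rose from 0.959 to 89.1 ± 25.1 TPM with LPS in WT and reached 29.8 ± 8.51 in KO (-1.55 ± 0.31, adjusted p = 0.000103). Of the 6 other receptors tested, 3 rose and 1 fell with LPS in WT (75.8% of all genes passed), and under LPS 1 was higher and 2 were lower in KO (27.6% of all genes passed). The higher one was Relt (1.75 ± 0.27, adjusted p = 2.12e-06), an orphan receptor, at 7.34 ± 1.99 TPM in KO and 1.48 in WT.

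Of 31 tested adaptors and regulators of these receptors, 12 rose and 13 fell with LPS in WT, where 75.8% of all genes passed (13.9% higher and 61.9% lower). Under LPS KO exceeded WT in 2 and fell below it in 10, beside 14.4% and 13.2% of all genes, and the same counts against HET were 2 and 11, beside 12.5% and 11.5%. Traf1, an NF-kappaB target that binds TNF receptor 2, went from 0.305 to 301 TPM with LPS in WT. Tnfaip3 (A20, a brake on NF-kappaB) went from 15.3 to 207 TPM in WT and stood at 84.7 in KO with LPS (-1.31 ± 0.15, adjusted p = 2.3e-09). Cflar (-0.83 ± 0.09), which blocks caspase-8, and Rnf31 (-0.82 ± 0.11), a subunit of the linear ubiquitin ligase, were lower in KO, and Traf5 was higher (1.65 ± 0.23, adjusted p = 4.46e-07). Under pIC, KO exceeded WT in 1 of 31 (Nfkb1, 0.27) and fell below it in 1 (Traf6, -0.35). The shares of all genes tested there were 3.4% and 8.11%, so these calls do not set the adaptors apart. Both proteases tested that shed family members were higher in KO under LPS, beside 14.4% of all genes. Adam17 stood at 163 against 96.1 TPM in WT (0.74 ± 0.09, adjusted p = 4.1e-08), and Adam10 was higher by 0.33 ± 0.09.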

How the data were processed

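Expression was measured by bulk RNA-seq of 59 mRNA libraries of primary microglia (300 ng RNA each, per the labels). The authors deposited TPM values of 32070 genes, 44 libraries in one table and 15 pIC libraries in the other; FastQC, Trimmomatic, DRAGEN, Picard and mm10 are named, per the submitters' processing notes, without versions. Each library's TPM summed to between 999806 and 999936. Sequencing depth is unknown. From these values log2(TPM + 1) was computed for genes at 1 TPM or more in at least 4 libraries (15908 and 13919 genes) and fitted by group with limma 3.58.1 in R 4.3.3 (empirical Bayes with trend), separately in each table, over 20 comparisons. P-values were adjusted by Benjamini-Hochberg over all genes tested. The script was tested on simulated data. All 33 members are accounted for; values by library or range are given for members called in any comparison, in order of role, and up to 4 called genes of largest difference for each list of other genes. Members and gene lists were chosen with earlier results of these data known. No 2 libraries held identical values.

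Alternative settings were quantile normalization, median-of-ratios scaling, a pseudocount of 0.1, testing without the filter on low values, fits on only the groups compared, the replicate number as a block, leaving out each library, and thresholds of 0.5 and 5 TPM for expression. Replicate numbers come from the labels, which do not say that a number marks a shared litter. Deviations of same-numbered libraries correlated above 0.1 in every pair for LPS and IL4 against UT in WT (lowest 0.117 and 0.191) and in KO (0.13 and 0.173), and for untreated HET against WT (0.121), and not in the other comparisons. The mean over same-numbered pairs was nonetheless above that over other pairs in each comparison. It was 0.285 against -0.0695 for IL4 against UT in HET and 0.245 against -0.0603 for HET against WT under pIC. The main fit used no block. Replicate 5 of untreated WT was not analysed here. P-values measure the spread between these libraries.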

Additional observations from a re-analysis of the deposited data

Results flagged for a closer look

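Among 221 combinations of a member and a group with a mean of at least 1 TPM, 8 held a highest or lowest library whose gap to its nearest neighbour, as a share of the group's range, was above the critical value of Dixon's test. Chance gives about 1 in 20 groups, so 8 of 221 is no more than chance would give. The combinations share libraries and overlapping genes and are not independent. Tnfrsf13c was at 7.45 TPM in replicate 4 of untreated KO (median of the other libraries 0.949) and at 4.07 TPM in replicate 4 of KO with IL4 (0.709), so both libraries carry the same genotype and replicate number. Tnfrsf12a was at 19.7 TPM in replicate 1 of WT with LPS (11.3) and at 7.60 TPM in replicate 4 of HET with pIC (12.0). Tnfrsf14 was at 52.0 TPM in replicate 5 of WT with pIC (74.1). Tnfrsf1b was at 168 TPM in replicate 5 of HET with IL4 (195). Tnfrsf21 was at 18.9 TPM in replicate 5 of HET with pIC (25.8), and Tnfsf9 at 26.2 TPM in replicate 1 of HET with pIC (22.0).

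For 10 members the response to LPS differed between KO and WT by limma's test of the difference. On the log2 scale, KO minus WT, it was -1.47 for Tnfrsf11a, -0.91 for Tnfrsf1b, -0.61 for Tnfrsf8, -1.33 for Tnfsf10, -1.77 for Tnfsf15 and -1.34 for Tnfsf9. It was 0.63 for Tnfrsf13b, 0.93 for Tnfrsf21, 1.08 for Tnfsf12 and 1.01 for Tnfsf13b. For Tnfsf9 the KO minus WT difference was -1.13 under LPS and 0.74 under pIC, with no overlap of libraries in either, and this difference between the stimuli was not tested.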

How the results depend on the processing

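No called difference of a member changed direction under the alternatives run. Of 101 such calls, 101 were kept with the replicate block, 95 with a pseudocount of 0.1, 89 without the filter on low values, 89 with median-of-ratios scaling, 87 with quantile normalization, 86 with fits on only the groups compared and 79 through every omission of 1 library. The number of members called moved by more than 1.5 times in few comparisons, most of them with IL4. For IL4 in WT (2) it was 0 without the filter, 0 with median-of-ratios scaling and 4 with the replicate block; in HET (3) it was 1 without the filter, 7 with the block and 5 with only the groups compared; in KO (3) it was 7 with the block and 5 with only the groups compared. For KO against HET it was 7 under LPS with only the groups compared (12) and 4 under pIC with the block (2). The block changed no other count by that much. Leaving out 1 library at a time gave 16 to 18 members for LPS in WT, 15 to 18 in HET and 17 to 19 in KO, 0 to 3 for IL4 in WT, 0 to 3 in HET and 1 to 4 in KO. It gave 13 to 15 for KO against WT and 10 to 12 for KO against HET under LPS, 2 to 3 for each under pIC, 0 to 1 for HET against WT under LPS, and 7 to 10 for the difference in LPS response. The cause of these changes was not tested. TPM values carry no depth, so the precision of members near 1 TPM is known only from the spread between libraries.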
